A study of Rattus norvegicus with 15 samples.

Results

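The 10 genes described here encode enzymes of mitochondrial fatty acid oxidation and were followed across the intestine of 15 rats. The members were Cpt1a, Cpt1b, Cpt2, Slc25a20, Acadvl, Acadl, Acadm, Acads, Hadha and Hadhb, taken by gene name from the annotation of the array. They are represented by 15 of 41012 noncontrol probes, of which 22503 carry a gene name. All 15 probes were well above background on all 15 arrays and were therefore among the 17028 probes tested. Cpt1a, Cpt1b and Acadvl have 2 probes each, Hadha has 3 and the others have 1, and each probe is described apart.

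The study asked how the alimentary limb (Roux limb, RL) changes after Roux-en-Y gastric bypass (RYGB) in a nonobese diabetic rat. Goto-Kakizaki (GK) rats are a strain with inherited type 2 diabetes bred from Wistar rats without obesity. GK-S-30 rats received RYGB with an RL of 30 cm at 16 wk of age, and RL tissue near the gastric anastomosis was collected 14 wk later. GK-Sham-PF rats were GK rats of the same age that were sham-operated, with the intestine cut at 16 cm and rejoined by anastomosis, and pair-fed. Wistar rats were nondiabetic and had no operation. The corresponding intestinal segment was taken from the sham and Wistar groups. Differences are given as GK-S-30 minus its sham controls (the RYGB comparison), as GK-Sham-PF minus Wistar (the sham-to-Wistar comparison) and as GK-S-30 minus Wistar. All rats were male and were fasted overnight, and each group had 5 rats with 1 array per rat. Both operated groups share the GK strain, so strain and diabetes cannot be told apart in comparisons with Wistar. Nor can either be told from the sham operation and pair-feeding when GK-Sham-PF rats are set against Wistar. When GK-S-30 rats are set against Wistar, neither can be told from RYGB. Both groups of the RYGB comparison had abdominal surgery with an intestinal anastomosis. There the division of the stomach, the gastric anastomosis and the altered passage of food and bile cannot be told apart. Each value is the log2 of a background-subtracted probe intensity after quantile normalization between arrays. P-values are from limma with Benjamini-Hochberg adjustment over all tested probes, with 0.05 as the threshold, and they measure the spread between these rats.

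Mitochondrial beta-oxidation shortens fatty acids and yields acetyl-CoA and reduced cofactors. Long-chain acyl groups cross the mitochondrial membranes as carnitine esters. Cpt1a (the liver form) and Cpt1b (the muscle form) attach carnitine at the outer membrane, the carrier Slc25a20 exchanges acylcarnitine for carnitine across the inner membrane, and Cpt2 returns the acyl group to CoA inside. Malonyl-CoA inhibits the outer-membrane enzymes. Acyl-CoA dehydrogenases of overlapping chain-length preference then take the first oxidation step: Acadvl for very long, Acadl for long, Acadm for medium and Acads for short chains. The mitochondrial trifunctional protein, with Hadha as its alpha and Hadhb as its beta subunit, carries out the remaining steps for long chains. In the small intestine, absorptive enterocytes take up dietary fat, export most of it in chylomicrons and oxidize a part.

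Probes of 60 bases report these transcripts. Those of Hadha and Acadvl are shown because probes to the same gene gave unequal values on some arrays. The sequences are those deposited for the array, in lower case, and the coordinates are those of its annotation (rat genome rn4). Hadha probe 199 (named, as are the others, for the base of the annotated transcript at which it starts) lies at chr6_random:452205-452264 on the plus strand and has 35% G and C. Hadha probe 1957 lies across 564 bases at chr6_random:467174-467737 on the plus strand and has 45% G and C, and a probe longer on the genome than its 60 bases crosses an intron. Acadvl probe 1382 lies at chr10:56857370-56857429 on the minus strand with 41.7% G and C, and Acadvl probe 1930 at chr10:56856347-56856406 on the minus strand with 55%.
Hadha probe 199: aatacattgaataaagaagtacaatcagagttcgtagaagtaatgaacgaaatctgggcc
Hadha probe 1957: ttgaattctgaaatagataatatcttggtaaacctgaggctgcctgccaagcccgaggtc
Acadvl probe 1382: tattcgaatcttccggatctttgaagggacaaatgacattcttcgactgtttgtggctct
Acadvl probe 1930: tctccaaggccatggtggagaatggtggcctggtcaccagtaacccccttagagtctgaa

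The other probes lie at chr6_random:468441-468500, plus strand (Hadha probe 2636), chr6:26144500-26144559, minus (Hadhb), chr9:65613235-65613294, minus (Acadl), chr2:251867002-251867061, minus (Acadm), and chr12:42774463-42774522, plus (Acads). Those of the carnitine shuttle lie at chr5:129007858-129007917, minus (Cpt2), chr8:113736281-113736339, plus (Slc25a20), chr7:127737188-127737247, minus (Cpt1b probe 2707), and chr7:127744759-127745116, minus, over 358 bases (Cpt1b probe 263). Cpt1a probe 3421 lies at chr1:205912066-205912125 on the plus strand. Cpt1a probe 148, designed to an expressed sequence tag, lies 655 bases beyond it at chr1:205912781-205912840 and is annotated on the opposite strand, so it may not report the Cpt1a transcript.

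The genes of the trifunctional protein stand head to head. In RefSeq (GRCr8), the start of Hadha on the plus strand (31907801 on chromosome 6) and that of Hadhb on the minus strand (31907500) have 300 bases between them. The 200 bases of chr6:31907551-31907750, read on the plus strand, are shown because they lie upstream of both genes. AGGTCA, the half-site bound by nuclear receptors such as the fatty acid sensor Ppara, was searched on both strands of the windows from 250 bases before to 50 after each start. It was present in 2 of 8 member windows, Acadvl with 2 matches and Hadhb with 1, and in 5415 of 33469 windows of that length in RefSeq (16.2%). The Acadvl sequence is the 250 bases of chr10:55236706-55236955 before the start, read on the minus strand, with the matches in capitals at -169 and -17 from the start. The Hadhb match lies at 42 bases past its start, outside the shared stretch, which has none. A match is a description of the letters and not of binding.
Hadha and Hadhb shared upstream: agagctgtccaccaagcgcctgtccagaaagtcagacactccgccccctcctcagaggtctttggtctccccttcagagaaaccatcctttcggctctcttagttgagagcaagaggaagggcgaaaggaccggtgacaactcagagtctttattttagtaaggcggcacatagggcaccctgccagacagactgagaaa
Acadvl upstream: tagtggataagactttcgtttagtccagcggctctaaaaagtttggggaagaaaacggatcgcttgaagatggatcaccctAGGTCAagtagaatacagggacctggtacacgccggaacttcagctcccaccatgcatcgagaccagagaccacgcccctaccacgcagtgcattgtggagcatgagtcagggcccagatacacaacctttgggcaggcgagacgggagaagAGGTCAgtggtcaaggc

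In GK-S-30 rats, 3 of 15 member probes were lower than in the sham controls and none was higher. They were Hadha probe 2636 (0.693-fold), Acadl (0.749-fold) and Acadvl probe 1930 (0.757-fold), which report enzymes of the very long- and long-chain steps. No probe of the carnitine shuttle and no probe for the medium- and short-chain dehydrogenases passed the test. Over all 17028 tested probes, 8.36% were called in this comparison, 3.58% as lower. The mean of GK-S-30 was below that of GK-Sham-PF for all 15 member probes, with log2 fold changes from -0.53 to -0.04 and a median of -0.23, and for 53.8% of all tested probes, with a median of -0.02. Of the members, 5 had an unadjusted p under 0.05, against 22.1% of all probes. Because probes of the same genes and arrays share their source, these counts are a description.

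Markers of other cell types differed between the same groups. Of 9 smooth muscle markers, 5 were higher in the RYGB comparison (Actg2, Cnn1, Des, Tagln and Synm), and the summed signal of the 9 lay at 16.57 to 16.92 (log2) in GK-S-30, 14.81 to 15.93 in GK-Sham-PF and 14.95 to 15.77 in Wistar arrays. None of 9 enterocyte markers passed the test, their median log2 fold change was -0.10, and their summed signal was 20.06 to 20.21, 20.04 to 20.24 and 20.12 to 20.31 in these groups. Of 3 distal small intestine markers, Slc10a2 (log2 fold change 3.43) and Fabp6 (1.71) were higher in GK-S-30 rats, and Pyy (0.16) was not called. Slc10a2 was lower in GK-Sham-PF than in Wistar rats (-2.41), so that it differed less between GK-S-30 and Wistar (1.02). The 3 duodenum markers were not called in the RYGB comparison, with log2 fold changes of 0.94 (Pdx1), 0.78 (Slc40a1) and -0.12 (Cybrd1). None of 4 tested adipocyte markers was called, but all 4 had a lower mean, with a median of -0.72 (0.69 for GK-Sham-PF minus Wistar), and their summed signal was 12.17 to 13.11 in GK-S-30, 12.42 to 13.81 in GK-Sham-PF and 12.22 to 13.65 in Wistar arrays. Of the adipocyte markers not tested, Plin1 was well above background on 1 GK-S-30 array, 3 Wistar arrays and 4 GK-Sham-PF arrays, and Lep on none. The mean was lower for 5 of 5 leukocyte markers (median -0.47, Cd3e called) and for 4 of 4 markers of neurons and glia (median -0.32, Gfap called). Of 4 goblet cell markers Clca1 was called higher, and of 5 enteroendocrine markers Chgb and Sct were. In whole tissue, fewer cells of a type and less RNA per cell cannot be told apart. The part of other cell types in the member changes was not tested.

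**Figure D1:**
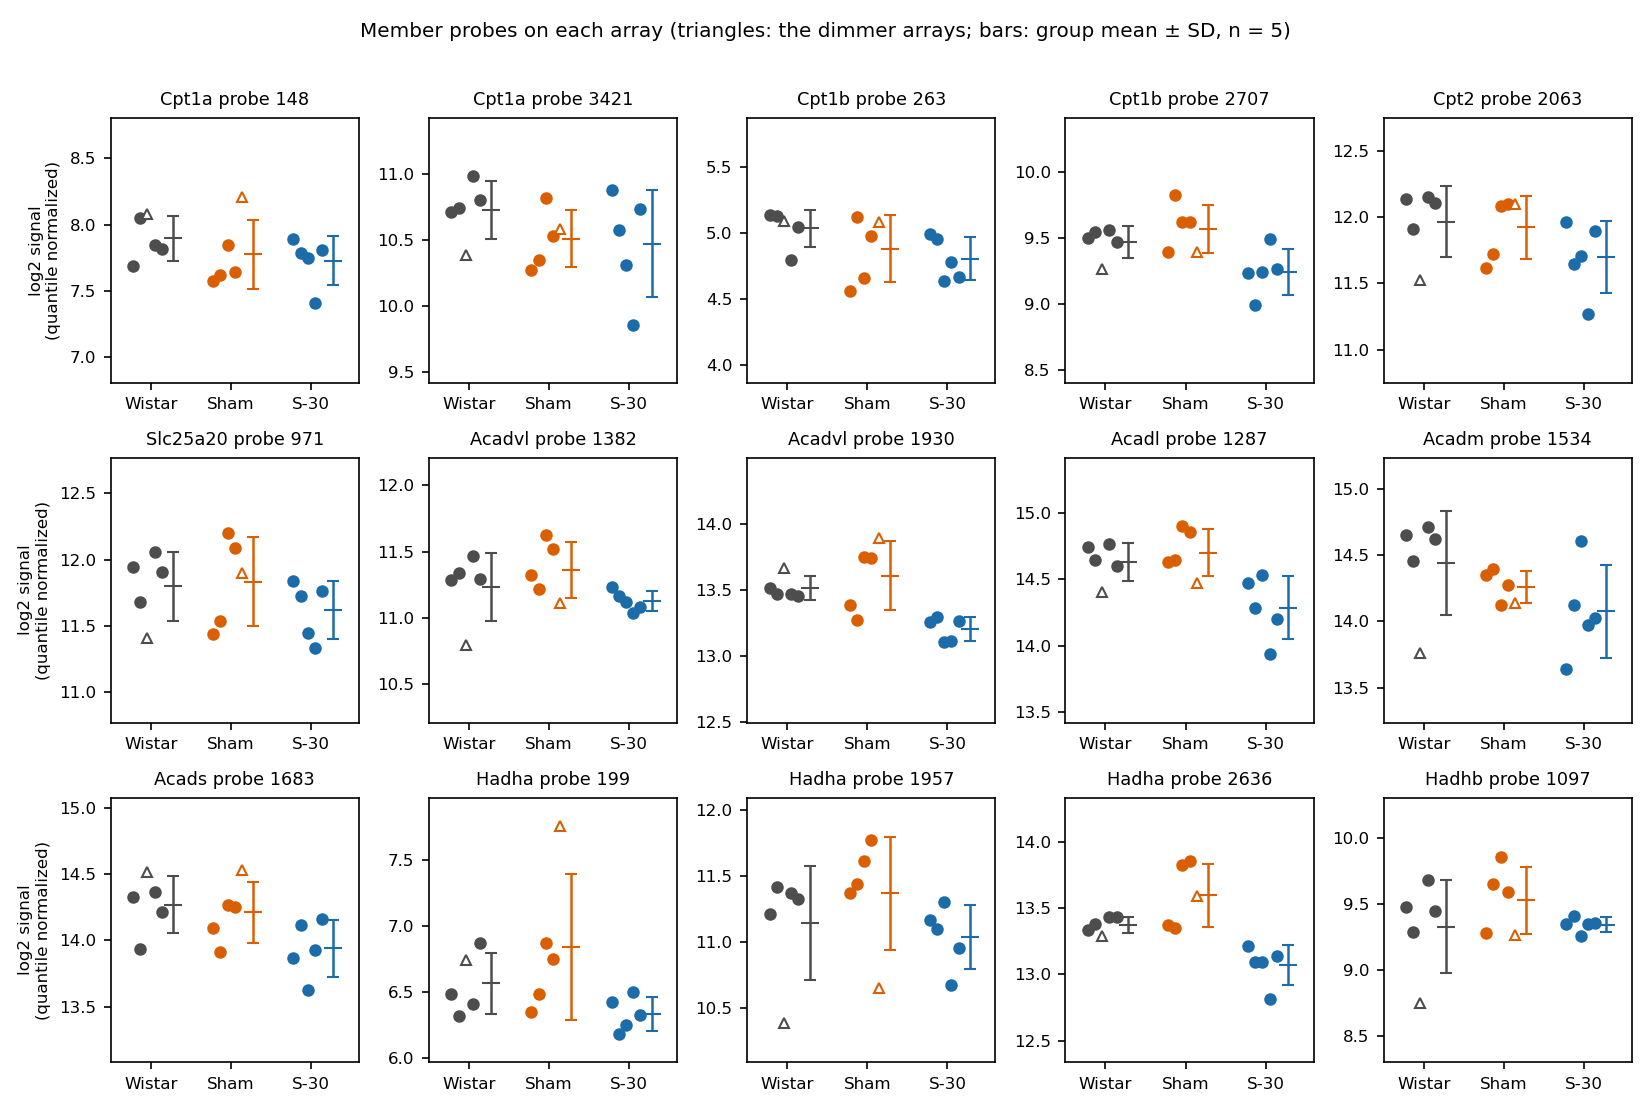
Log2 normalized intensity of each of the 15 member probes (1 panel each) on each array, by group, with the mean and SD of 5 rats; triangles mark the dimmer arrays (Wistar 3 and sham 5). Hadha probe 2636 is the only panel in which all 5 GK-S-30 points lie under all 5 GK-Sham-PF points.

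No probe of the carnitine shuttle passed the test in the RYGB comparison. Cpt1a probe 3421 was at 10.71, 10.74, 10.39, 10.99 and 10.80 in Wistar, 10.27, 10.35, 10.82, 10.53 and 10.58 in GK-Sham-PF and 10.87, 10.58, 10.31, 9.86 and 10.74 in GK-S-30 rats (log2 level, replicates 1 to 5). The 3 groups overlapped, and GK-S-30 replicate 4 was the lowest of all arrays. The log2 fold change in the RYGB comparison was -0.04 (95% interval -0.41 to 0.34, adjusted p = 0.933).

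Cpt2 was at 12.14, 11.92, 11.52, 12.15 and 12.11 in Wistar, 11.62, 11.72, 12.08, 12.10 and 12.10 in GK-Sham-PF and 11.97, 11.64, 11.71, 11.27 and 11.90 in GK-S-30 rats. Slc25a20 was at 11.94, 11.68, 11.41, 12.06 and 11.90 in Wistar, 11.44, 11.53, 12.20, 12.09 and 11.90 in GK-Sham-PF and 11.84, 11.73, 11.45, 11.34 and 11.77 in GK-S-30 rats. Groups overlapped for both genes, and GK-S-30 replicate 4 was again the lowest array. In the RYGB comparison their log2 fold changes were -0.23 (SE 0.16, adjusted p = 0.447) and -0.21 (SE 0.17, adjusted p = 0.516).

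Cpt1b probe 2707 was at 9.50, 9.55, 9.27, 9.56 and 9.47 in Wistar, 9.40, 9.82, 9.62, 9.62 and 9.39 in GK-Sham-PF and 9.23, 8.99, 9.24, 9.49 and 9.26 in GK-S-30 rats. GK-S-30 replicate 4 lay within the GK-Sham-PF range and the other 4 arrays lay under it. The log2 fold change was -0.33 (SE 0.11), which did not pass after adjustment (adjusted p = 0.0824). Cpt1b probe 263 was at 4.56 to 5.13 on all arrays and Cpt1a probe 148 at 7.41 to 8.21, with log2 fold changes of -0.07 and -0.05.

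Among the acyl-CoA dehydrogenases, Acadl and 1 of the 2 Acadvl probes fell in GK-S-30 rats, and whether they differed more than Acadm and Acads was not tested. Acadl was at 14.74, 14.64, 14.40, 14.76 and 14.60 in Wistar, 14.63, 14.64, 14.90, 14.86 and 14.47 in GK-Sham-PF and 14.47, 14.28, 14.53, 13.94 and 14.20 in GK-S-30 rats. Of the GK-S-30 arrays, replicate 3 lay within the GK-Sham-PF range, and GK-Sham-PF replicate 5 was the lowest of its group. Acadl fell by 0.42 on the log2 scale against GK-Sham-PF (SE 0.12, adjusted p = 0.0489).

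Acadvl probe 1930 was at 13.51, 13.47, 13.67, 13.47 and 13.45 in Wistar, 13.39, 13.27, 13.75, 13.74 and 13.89 in GK-Sham-PF and 13.26, 13.29, 13.10, 13.11 and 13.26 in GK-S-30 rats. GK-Sham-PF arrays were spread, with replicates 1 and 2 close to GK-S-30 and the other three well above, and GK-S-30 arrays lay close together. This probe fell by 0.40 on the log2 scale (SE 0.11, adjusted p = 0.0397). Acadvl probe 1382 was at 11.28, 11.34, 10.79, 11.47 and 11.29 in Wistar, 11.32, 11.22, 11.62, 11.52 and 11.11 in GK-Sham-PF and 11.23, 11.16, 11.12, 11.03 and 11.08 in GK-S-30 rats. The GK groups overlapped, and its log2 fold change of -0.23 (SE 0.13) did not pass (adjusted p = 0.299).

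Acadm was at 14.65, 14.45, 13.77, 14.71 and 14.62 in Wistar, 14.35, 14.40, 14.13, 14.28 and 14.14 in GK-Sham-PF and 13.64, 14.13, 14.61, 13.97 and 14.03 in GK-S-30 rats. Acads was at 14.33, 13.93, 14.51, 14.37 and 14.21 in Wistar, 14.09, 13.91, 14.27, 14.26 and 14.53 in GK-Sham-PF and 13.87, 14.12, 13.63, 13.93 and 14.16 in GK-S-30 rats. All groups overlapped for both genes. In the RYGB comparison, Acadm had a log2 fold change of -0.18 (95% interval -0.58 to 0.21, adjusted p = 0.629) and Acads one of -0.27 (-0.56 to 0.02, adjusted p = 0.271).

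Of the trifunctional protein, the alpha subunit fell at 1 of its 3 probes. Hadha probe 2636 was at 13.34, 13.38, 13.29, 13.43 and 13.43 in Wistar, 13.37, 13.35, 13.82, 13.86 and 13.59 in GK-Sham-PF and 13.22, 13.09, 13.09, 12.81 and 13.14 in GK-S-30 rats. All 5 GK-S-30 arrays lay below all arrays of both other groups. Against GK-Sham-PF it fell by 0.53 on the log2 scale (SE 0.11, 95% interval -0.77 to -0.29, adjusted p = 0.00975), and such a separation of 5 lower from 5 higher arrays was found in 3.8% of all tested probes.

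Hadha probe 1957 was at 11.21, 11.42, 10.38, 11.37 and 11.33 in Wistar, 11.37, 11.44, 11.61, 11.77 and 10.65 in GK-Sham-PF and 11.17, 11.10, 11.31, 10.67 and 10.95 in GK-S-30 rats. Replicate 3 of Wistar and replicate 5 of GK-Sham-PF were the lowest arrays of the 15. Hadha probe 199 was at 6.49, 6.32, 6.75, 6.41 and 6.87 in Wistar, 6.35, 6.49, 6.87, 6.75 and 7.76 in GK-Sham-PF and 6.43, 6.18, 6.25, 6.50 and 6.33 in GK-S-30 rats. Here GK-Sham-PF replicate 5 was the highest of the 15. Neither probe passed, with log2 fold changes of -0.33 (SE 0.22, adjusted p = 0.427) for probe 1957 and -0.50 (SE 0.21, adjusted p = 0.162) for probe 199.

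Hadhb was at 9.47, 9.29, 8.75, 9.68 and 9.44 in Wistar, 9.28, 9.65, 9.86, 9.59 and 9.26 in GK-Sham-PF and 9.35, 9.41, 9.26, 9.35 and 9.36 in GK-S-30 rats. GK-S-30 arrays lay close together, within the Wistar range and at the lower end of the GK-Sham-PF range, where replicates 3 of GK-S-30 and 5 of GK-Sham-PF were nearly level. Its log2 fold change in the RYGB comparison was -0.18 (SE 0.15, adjusted p = 0.544).

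The dimmer arrays, replicate 3 of Wistar and replicate 5 of GK-Sham-PF, stood apart on many member probes, and probes of 1 gene differed in direction there. The 75th percentile of their raw signal was 224 and 225, against 329 to 384 on the other 13 arrays. Wistar replicate 3 lay below the other 4 Wistar arrays on 10 member probes and above them on 3, and GK-Sham-PF replicate 5 lay below its group on 5 and above it on 5. On 12 of 15 probes both arrays deviated to the same side. The deviations from the mean of the other 4 arrays were -0.95 and -0.89 (log2) for Hadha probe 1957 and 0.22 and 1.14 for Hadha probe 199. For Acadvl they were -0.55 and -0.31 at probe 1382 and 0.19 and 0.36 at probe 1930. Hadha probe 2636 deviated little, by -0.11 and -0.01. The part of array brightness in these deviations was not tested.

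**Figure D2:**
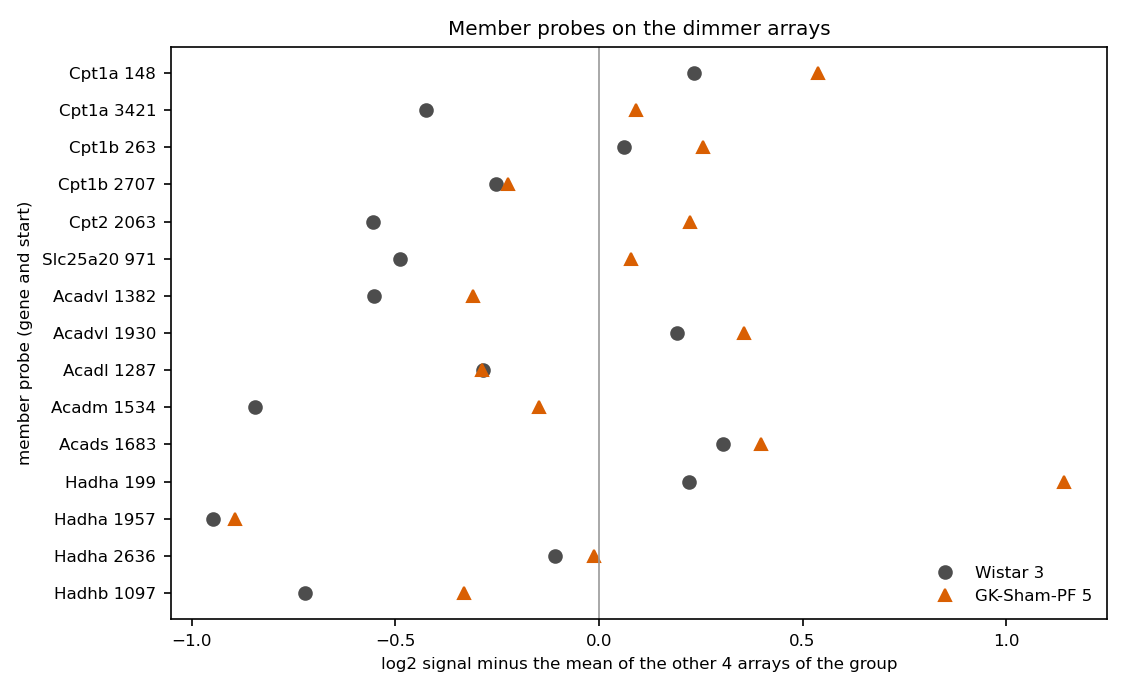
Deviation (log2) of the dimmer arrays (Wistar 3 and sham 5) from the mean of the other 4 arrays of their group, for each of the 15 member probes. Hadha probes 1957 and 199 lie on opposite sides of 0, as do Acadvl probes 1382 and 1930, and Hadha probe 2636 lies near 0.

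Without these arrays, 4 of 15 member probes were lower in the RYGB comparison, where 11% of all tested probes were then called. Hadha probes 2636 (log2 fold change -0.53, adjusted p = 0.0150) and 1957 (-0.51, adjusted p = 0.0215), Acadl (-0.47, adjusted p = 0.0219) and Cpt1b probe 2707 (-0.37, adjusted p = 0.0375) passed. Acadvl probe 1930 did not (-0.33, adjusted p = 0.0572), nor did Hadha probe 199 (-0.28, adjusted p = 0.201). Over 30 alternative settings, Hadha probe 2636 was called in 29, with log2 fold changes from -0.59 to -0.45. The exception was the fit with slide as a fixed block (adjusted p = 0.139). Acadvl probe 1930 was called in 11 (-0.54 to -0.33) and Acadl in 10 (-0.48 to -0.29), so the calls of these probes depended on the setting and their direction did not. When 1 array was left out at a time, Hadha probe 2636 was called in all 15 fits. Acadvl probe 1930 was not called in 11 of them, all but those without Wistar 3, GK-Sham-PF 1 or 2 or GK-S-30 2 (adjusted p up to 0.0937), and Acadl was not called in 11, all but those without Wistar 3, GK-Sham-PF 5 or GK-S-30 1 or 3 (adjusted p up to 0.117). Arrays were hybridized on 4 slides that were not balanced over the groups. Within the slide that held both GK groups, 2 GK-S-30 against 2 GK-Sham-PF arrays, the mean was lower in GK-S-30 for 14 of 15 member probes (median log2 difference -0.29, against -0.01 for all tested probes). There Hadha probe 2636 differed by -0.57, Acadvl probe 1930 by -0.54 and Acadl by -0.29. The GK-Sham-PF arrays of this slide were replicate 5, a dimmer array, and replicate 4, the highest of its group for smooth muscle markers. For Acadvl probe 1930 both were among the GK-Sham-PF arrays that lay well above GK-S-30. Without Wistar replicate 1 and GK-Sham-PF replicate 4, the arrays of their groups with the highest smooth muscle markers, Hadha probe 2636 alone was called, while the log2 fold changes of Acadl (-0.38) and Acadvl probe 1930 (-0.37) stayed close to those with all arrays, and 5.61% of all tested probes were called.

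In the sham-to-Wistar comparison, no member passed the test. The log2 fold changes lay between -0.22 (Cpt1a probe 3421) and 0.27 (Hadha probe 199) with a median of 0.07, against 0.01 over all tested probes, and 6 of 15 were negative. None had an unadjusted p under 0.05, where 19.5% of all tested probes did and 7.89% were called. Hadha probe 2636 had the smallest p of the members, with a log2 fold change of 0.23 (95% interval -0.01 to 0.46, adjusted p = 0.290). Within the slide that held 3 GK-Sham-PF and 1 Wistar array, 9 of 15 differences were negative, between -0.36 and 0.26.

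When GK-S-30 rats were set against Wistar, no member passed after adjustment either, while 24.1% of all tested probes did. No slide held arrays of both groups, so slide and group cannot be told apart within this pair. Of the members, 4 had an unadjusted p under 0.05, against 36.5% of all probes. These were Acadl (log2 fold change -0.35, adjusted p = 0.0535), Acadvl probe 1930 (-0.31, adjusted p = 0.0608), Hadha probe 2636 (-0.30, adjusted p = 0.0623) and Acads (-0.33, adjusted p = 0.0975). GK-S-30 was below Wistar on 14 of 15 probes, from -0.37 (Acadm) to 0.02 (Hadhb), with a median of -0.23 against -0.01 for all probes. The GK-S-30 arrays lay below all Wistar arrays for Acadvl probe 1930 and Hadha probe 2636, as they did for 9.14% of all tested probes. Leaving out 1 array brought single members past the threshold: Acadm without Wistar 3 (adjusted p = 0.0198), Acads without Wistar 2 (adjusted p = 0.0428), Acadvl probe 1930 without GK-Sham-PF 2 or 5, and Acadl without Wistar 3, GK-Sham-PF 5 or GK-S-30 1 or 3. This comparison shares the GK-S-30 arrays with the RYGB comparison, so their values are not independent.

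**Figure D3:**
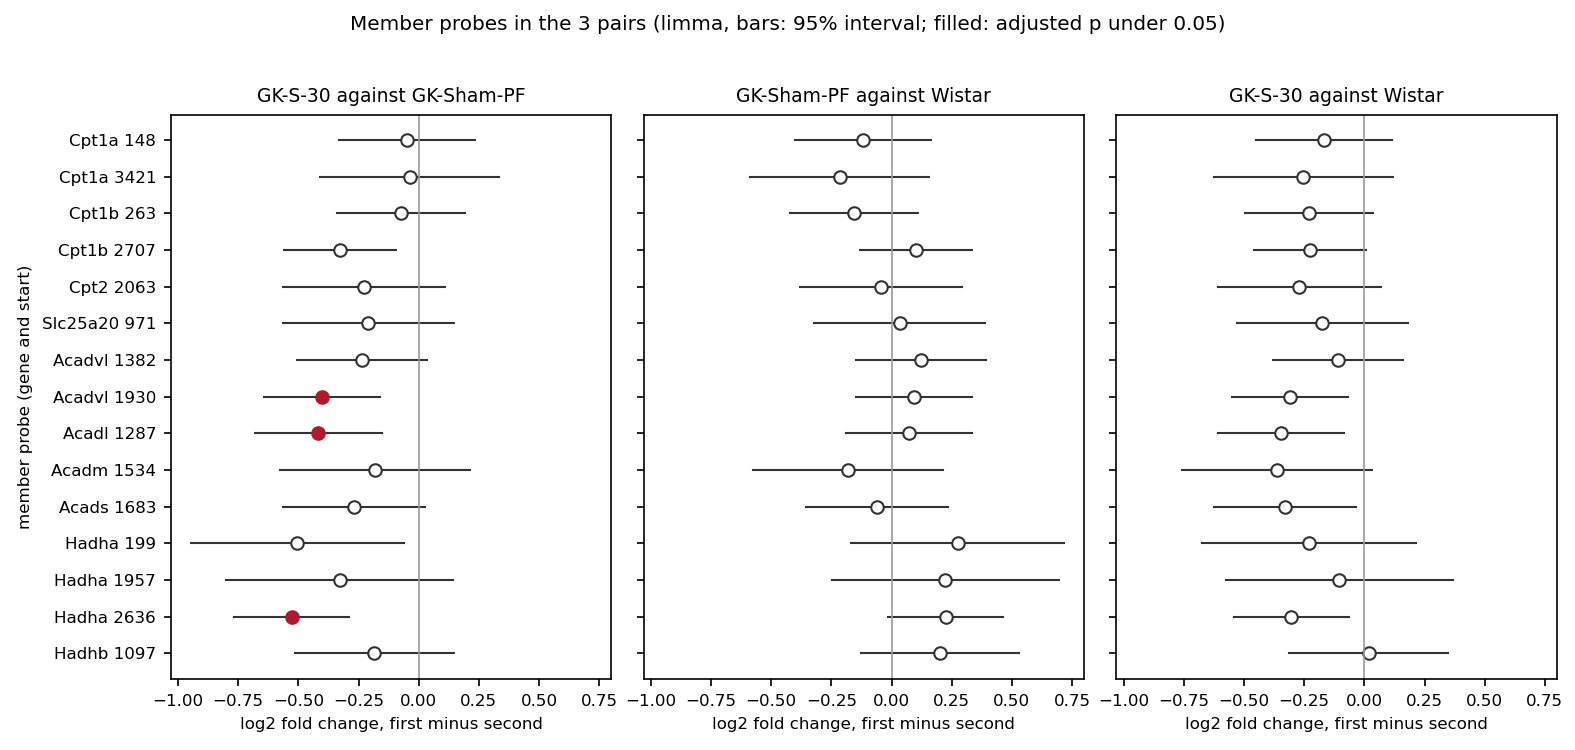
Log2 fold change of each member probe with its 95% interval in the 3 pairs of groups; filled points have an adjusted p under 0.05. The 3 filled points, Acadvl probe 1930, Acadl and Hadha probe 2636, are all in the RYGB comparison and lie below 0.

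The members varied unequally with one another. Over the 15 arrays, the 105 pairs of probes had a median Pearson correlation of 0.39, from -0.37 to 0.90, and of 0.25 after each group was centred on its mean. The correlation was 0.90 between Cpt2 and Slc25a20 and 0.85 between Cpt1a probe 3421 and Cpt2, and 0.90 and 0.88 after centring. Of the probes to 1 gene, Hadha probes 1957 and 2636 had 0.54, Hadha probes 199 and 1957 had -0.27 and the Acadvl probes 0.30. Hadha probe 2636 correlated at 0.84 with both Acadl and Acadvl probe 1930, and at 0.44 with Hadhb. These correlations share arrays and normalization and are descriptive.

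The genes whose values were most like the mean standardized profile of the members over the 15 arrays were Cfap126 (r = 0.88), Hsd17b10 (0.88), a mitochondrial dehydrogenase, Retsat (0.86), a retinol saturase, Plekhm1 (0.85) and Acaa2 (0.85), the thiolase of medium chains. Of these, Retsat (log2 fold change -1.18, adjusted p = 0.00203) and Acaa2 were also lower in the RYGB comparison. With each group centred on its mean, the closest genes were Rbp2 (0.89), the retinol-binding protein of enterocytes, Ahcy (0.87), Vwa8 (0.86), Pex11a (0.85) and Bmp1 (0.84). Among them, Bmp1 was higher in the RYGB comparison (log2 fold change 0.34, adjusted p = 0.0215 by limma) and the others were not called.

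Of 11 further enzymes listed here under the mitochondrial matrix, 5 fell in the RYGB comparison, none rose and 6 did not pass the test. Where their proteins lie in the cell was not measured. The list's median log2 fold change was -0.39 against -0.03 for all 13023 genes (brightest probe of each), of which 9.11% were called. Hadh, the hydroxyacyl-CoA dehydrogenase of shorter chains, was at 15.83, 15.68, 15.94, 15.82 and 15.87 in GK-Sham-PF and 15.40, 15.31, 15.31, 15.15 and 15.33 in GK-S-30 rats. These arrays did not overlap, and Hadh fell by 0.53 on the log2 scale (SE 0.08, adjusted p = 0.00149). Its second probe had a log2 fold change of -0.27.

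Acaa2 was at 12.34, 12.44, 13.25, 12.70 and 12.54 in GK-Sham-PF and 11.76, 12.02, 12.06, 11.78 and 12.10 in GK-S-30 rats, again without overlap. It fell by 0.71 (SE 0.18, adjusted p = 0.0228) and its other probe had a log2 fold change of -0.69. The auxiliary enzymes of unsaturated fatty acids fell too: Decr1, a dienoyl-CoA reductase, by 0.75 (SE 0.20, adjusted p = 0.0286), and the enoyl-CoA isomerases Eci1 by 0.91 (SE 0.25, adjusted p = 0.0344) and Eci2 by 0.39 (SE 0.11, adjusted p = 0.0393). The arrays of these groups did not overlap for Decr1 and overlapped for Eci1 and Eci2. Eci1 was at 11.04, 10.74, 10.85, 11.10 and 10.62 in Wistar, 10.43, 10.67, 11.79, 11.44 and 12.03 in GK-Sham-PF and 10.21, 10.40, 10.47, 10.27 and 10.49 in GK-S-30 rats. Its GK-Sham-PF replicates 1 and 2 lay close to GK-S-30, and replicates 3 to 5 lay above all Wistar arrays. Of 30 alternatives, Hadh was called in 29, Acaa2 in 25, Decr1 in 20, Eci1 in 15 and Eci2 in 11.

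Of the electron transfer proteins that accept electrons from acyl-CoA dehydrogenases, Etfa, Etfb and Etfdh, none was called in the RYGB comparison. All 3 had a lower mean, with a median log2 fold change of -0.23, and Etfb (-0.23) and Etfdh (-0.34) missed the threshold with adjusted p of 0.140 and 0.123 by limma. Among 14 mitochondrial genes of other functions (respiratory chain, Krebs cycle, channels and import), none was called, 6 had a lower mean and the median was 0.06. Neither of the 2 tested genes of malonyl-CoA turnover, Acaca and Mlycd, was called at its brightest probe (log2 fold changes 0.15 and 0.09). The other probe of Acaca had a log2 fold change of -0.53.

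Of 9 tested genes of fatty acid activation and carnitine supply, 2 rose in the RYGB comparison and none fell, where 9.11% of all genes were called. The list's median log2 fold change was -0.13, and 5 of 9 had a lower mean. Acsl1, an acyl-CoA synthetase, was at 11.89, 12.03, 12.14, 11.97 and 11.97 in GK-Sham-PF and 12.69, 13.00, 12.56, 12.44 and 12.87 in GK-S-30 rats. Acsl3, another member of that family, was at 10.71, 10.57, 10.54, 10.27 and 10.11 in GK-Sham-PF and 11.88, 11.37, 11.49, 11.43 and 11.45 in GK-S-30 rats. The arrays of the groups did not overlap for either gene. Acsl1 rose by 0.71 (SE 0.11, adjusted p = 0.00106) and Acsl3 by 1.08 (SE 0.17, adjusted p = 0.00153), and both were called in all 30 alternatives. The other 7 genes of this list, among them the carnitine transporter Slc22a5 (log2 fold change -0.48, adjusted p = 0.0734), did not pass. Slc27a2 had the largest of their changes (-1.64, SE 0.87, adjusted p = 0.290 by limma), and its GK-S-30 arrays lay below all GK-Sham-PF arrays.

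Of 13 regulators, 2 passed in the RYGB comparison, where 9.11% of all genes were called. Of the 13, 7 had a lower mean, and the list's median log2 fold change was -0.15. Sirt3, a mitochondrial deacetylase, fell by 0.46 (SE 0.09, adjusted p = 0.00834), and Lpin1, a phosphatidate phosphatase that also acts as a coactivator, rose by 0.65 (SE 0.12, adjusted p = 0.00316). The fatty acid sensor Ppara had a log2 fold change of -0.33 (adjusted p = 0.340), the coactivator Ppargc1a one of -0.42 (adjusted p = 0.340) and the receptor Esrra one of -0.22 (adjusted p = 0.185). Pparg (0.49, adjusted p = 0.119 by limma) and Foxo1 (0.39, adjusted p = 0.0992) had higher means and were not called either.

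**Figure D4:**
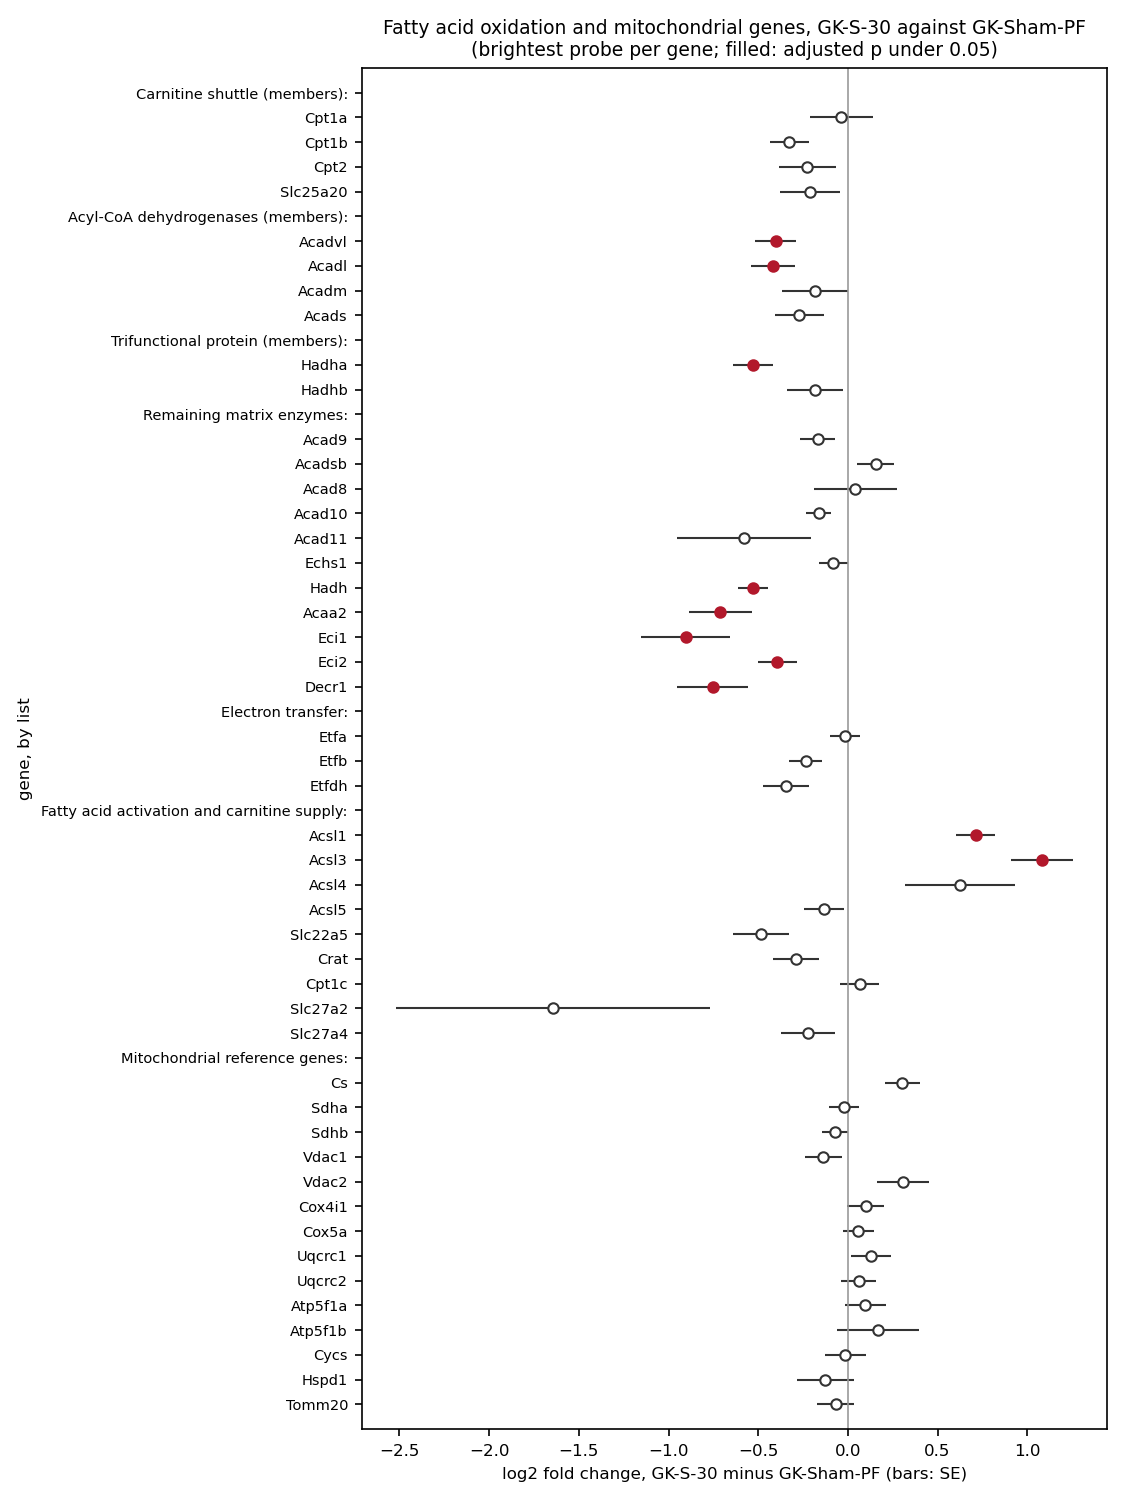
Log2 fold change in the RYGB comparison, with SE, for the brightest probe of each member and of each tested gene of the matrix enzymes, electron transfer, fatty acid activation and mitochondrial reference lists; filled points have an adjusted p under 0.05. The called genes of the matrix enzyme list lie between -0.91 and -0.39, Acsl1 and Acsl3 at 0.71 and 1.08, and no mitochondrial reference gene is called.

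In the sham-to-Wistar comparison, 5 of 38 tested genes of the lists outside the members and the reference genes were called, against 8.4% of all genes, and the others did not pass. The hydratase Echs1 fell by 0.63 (SE 0.08, adjusted p = 0.000114) and Eci2 by 0.78 (SE 0.11, adjusted p = 0.000234), while Acad9, an acyl-CoA dehydrogenase that also assembles respiratory complex I, rose by 0.82 (SE 0.10, adjusted p = 4.77e-05). Mlycd, which breaks down malonyl-CoA, fell by 0.85 (adjusted p = 0.00176). Slc27a2, a very long-chain acyl-CoA synthetase and transporter, fell by 3.17 (SE 0.87, adjusted p = 0.0363) and was called in 17 of 30 alternatives. Its Wistar arrays were at 10.67, 7.41, 6.24, 11.87 and 11.55 and its GK-Sham-PF arrays at 5.64, 5.72, 6.84, 6.60 and 7.08, so that Wistar replicate 3 lay within the GK-Sham-PF range. Of the reference genes, Cs, citrate synthase, rose by 0.33 (adjusted p = 0.0472).

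Of the same 38 genes, 19 were called when GK-S-30 rats were set against Wistar, where 25.5% of all genes were. No slide held both groups, and 1 of the 38 was called with slide as a fixed block. In the fit without the block, 7 of the 11 enzymes of the matrix list fell. Their log2 fold changes were -1.37 for Acad11, an acyl-CoA dehydrogenase, -1.17 for Decr1 and for Eci2, -1.01 for Acaa2, -0.71 for Echs1, -0.65 for Hadh and -0.34 for Acad10. Acad9 rose by 0.65. The list's median was -0.65 against -0.02 for all genes. The electron carrier Etfb (-0.33, adjusted p = 0.0170), Mlycd (-0.76), Ppara (-0.77, adjusted p = 0.00900), Sirt3 (-0.37) and Slc27a2 (-4.82) fell as well. Acsl1 (0.52), Acsl3 (0.80), Acsl4 (0.89), Foxo1 (0.61), Nrf1 (0.38) and Lpin1 (0.75) rose. Of 30 alternatives, Acsl4 was called in 12 and Nrf1 in 15, and each of the other genes that rose here in 29. Of 14 reference genes, Cs (0.64) and Vdac2 (0.49) rose, and Vdac1 fell at its brightest probe (-0.35), while its other probes had log2 fold changes of 0.21 and -0.04.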

How the data were processed

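Intestinal RNA of 15 male rats was measured with 1 array per rat. The arrays were 1-colour Agilent whole-genome arrays, and spots were read with Feature Extraction (10.7.3.1, as its output states). The intensity values are the authors' deposited processed signals, with the local background already removed by that program. The deposited series matrix holds log2 values that the authors had quantile-normalized between arrays, and it served as an alternative. Each array has 45018 spots, 43379 of them noncontrol. Outlier spots (52 to 109 per array) were left out, no remaining spot was saturated, spots of the same probe were averaged, and their log2 was quantile-normalized (limma 3.58.1, R 4.3.3). Such scaling takes the bulk of genes as unaltered, and values carry no scale to molecule numbers. The number of arrays limits the precision. Each array measured 66.7% to 74.8% of its probes well above background.

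Probes with a gene name that passed this mark on all arrays of 1 or more groups were tested, 17028 probes of 13023 genes, and symbols were updated through RefSeq names (GRCr8). A single limma model of the 15 arrays, without covariates, gave the 3 comparisons. The methods' comparison, Tukey's test of the 3 pairs, was an alternative, beside other scaling, background correction, filters, slide and replicate blocks, and leaving out arrays. Every probe of the members is described, genes of other pathway lists are named where called in any pair or as examples of those not called, and the most similar genes are the 5 with the highest correlation. The members and lists were chosen with earlier results of these data known. Of the other pathway lists, 38 of 41 genes were tested, without Acsl6, Bbox1 and Acacb. The slides held Wistar replicates 2 to 5 (A), Wistar 1 with GK-Sham-PF 1 to 3 (B), GK-Sham-PF 4 and 5 with GK-S-30 1 and 2 (C), and GK-S-30 3 to 5 (D). The procedure was tested on simulated data in which only a few probes were lowered in GK-S-30. In the RYGB comparison, 32 of 100 probes lowered by 0.5 on the log2 scale were called, and 75 of 100 lowered by 1. A probe that did not pass may therefore still differ.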

Additional observations from a re-analysis of the deposited data

Results flagged for a closer look

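In 4 of 45 groups of 5 arrays (15 member probes in 3 groups) 1 array lay far from the other 4, where chance gives about 1 in 20 groups. Wistar replicate 3, one of the dimmer arrays, was at 10.79 for Acadvl probe 1382, where the other Wistar arrays were at 11.28 to 11.47. The same array was at 13.77 for Acadm, against 14.45 to 14.71, and at 10.38 for Hadha probe 1957, against 11.21 to 11.42. Wistar replicate 4 was at 4.79 for Cpt1b probe 263, against 5.04 to 5.13.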

How the results depend on the processing

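No member probe reversed a called direction under any alternative. In the RYGB comparison, 3 of 15 member probes were called, and 1 under each of 75th percentile scaling, no filter on dim probes, only the 10 arrays compared, Tukey's test with Benjamini-Hochberg adjustment, and the fit without the control arrays highest for smooth muscle markers, which was chosen after seeing the data. With slide as a fixed block, 0 were called, and Hadha probe 2636 had an adjusted p of 0.139. With the replicate number as a block, 1 was called (Hadha probe 2636, adjusted p = 0.0378), and 5 of 38 other pathway genes. The numbers do not pair the samples: same-numbered arrays had correlations of -0.29 to 0.20, 3 of 15 above 0.1, and an array correlated best with its own number in 3 of 30 cases. Between GK-S-30 and Wistar, 0 member probes were called, but 1 with normexp background correction, 1 with 1 probe per gene, 2 with slide as a random block, 2 with only the 10 arrays, 2 without the dimmer arrays and 3 by Tukey's test without adjustment. In these settings 22% to 28.1% of all tested probes were called.

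Of the 38 other pathway genes, 9 were called in the RYGB comparison, but 3 with slide as a fixed block, 5 without the control arrays highest for smooth muscle markers and 14 by the unadjusted Tukey test. With slide as a fixed block, 1 was called in the sham-to-Wistar comparison (5 without it) and 1 between GK-S-30 and Wistar (19 without it). Leaving out each array in turn gave 1 to 3 member probes in the RYGB comparison, 0 in the sham-to-Wistar comparison and 0 to 2 between GK-S-30 and Wistar, and 6 to 9, 4 to 6 and 17 to 19 pathway genes.

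Over all probes, calls in the RYGB comparison numbered 1423, and 328 with slide as a fixed block, 564 by the adjusted and 2565 by the unadjusted Tukey test, and 947 and 937 without GK-Sham-PF replicate 1 or 2. In the sham-to-Wistar comparison the 1343 calls became 210 with the slide block, 826 and 2374 by the adjusted and unadjusted Tukey tests, 832 without the control arrays highest for smooth muscle markers and 2187 over all 27892 probes, named or not. Between GK-S-30 and Wistar the 4104 calls became 268 with the slide block, 2687 by the adjusted Tukey test and 6354 over all probes. With the block, the RYGB difference rests on the 1 slide that holds both GK groups. The sham-to-Wistar difference then rests on the slide with 3 GK-Sham-PF and 1 Wistar array. No slide holds both GK-S-30 and Wistar arrays. The cause of the changes in these counts was not tested.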

Other observations

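The acyl-CoA dehydrogenase Acad9 had a second tested probe that differed more than the one given above, by a log2 fold change of 4.76 between GK-Sham-PF and Wistar rats and 4.53 between GK-S-30 and Wistar rats, and by -0.23 in the RYGB comparison.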
